A study of Mus musculus with 12 samples.

Results

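Developmental NMDA receptor antagonism without aspartame was compared with the untreated control in the adrenal gland of adult male C57Bl/6J mice. The comparison uses 6 of the 12 arrays of the series, namely the 3 labelled as pooled adrenal RNA of mice with developmental NMDAR antagonism (CGP) and the 3 of Control mice (CON). The arrays were assigned to their groups by these titles, and the comparison was chosen with earlier results of these data known. The other 6 arrays carry RNA of mice given aspartame, alone (ASP) or with the antagonist (ASP+CGP). They enter the fit only to help estimate the spread between arrays and to test whether the antagonist difference was the same with aspartame. They also counted when a probe set was picked for a gene and when genes of low signal were left out.

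CGP mice were exposed to CGP 39551, which competes with glutamate for its site on NMDA receptors, through the dam from embryonic day 0 until postnatal day 28. The dose of 5 mg/kg was set for the dams and given in their drinking water. CON mice received neither CGP 39551 nor aspartame. All mice of both groups were male, fasted overnight and killed at 21 weeks under xylazine and ketamine, and ketamine is itself an NMDA receptor blocker that both groups shared. Drug exposure had therefore ended long before the tissue was taken, and whole glands were snap-frozen, with cortex, medulla and any attached tissue together. RNA from the mice of a group was combined in equal amounts into 1 pool and hybridised 3 times. The p-values therefore measure the spread between arrays of a pool, not between mice, and each comparison is between these particular pools.

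NMDA receptors are calcium-permeable channels that open when glutamate and glycine or serine bind together, and they are best known for synaptic plasticity in the brain. The adrenal cortex makes aldosterone and corticosterone from cholesterol, and the medulla holds chromaffin cells that release adrenaline under the control of splanchnic nerves. Hepatocytes of the liver make most plasma proteins, bile acids and drug-metabolising enzymes.

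Signals are RMA values on the log2 scale, so a difference of 1 is a doubling. Array medians of the 6 arrays lay between 7.89 and 7.94. CON arrays correlated with each other at r = 0.9941 to 0.9952 over all probe sets, CGP arrays at 0.9914 to 0.9916, and CON with CGP arrays at 0.9897 to 0.9928. The median gene had an SD between arrays of 0.063 in CON and 0.080 in CGP. The labelled tissue showed in its markers, with mean CON signals of 13.64 for Star, 13.56 for Cyp11a1 and 13.90 for Cyp11b1 of the cortex, and 13.39 for Th and 13.60 for Chga of the medulla. Liver messages were also high in the untreated gland, with Alb at 13.15 and Apoa1 at 12.30.

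Of 15900 genes tested, 257 were higher in CGP (1.62%) and 3 lower (0.0189%) at an adjusted p under 0.05 and at least 1.4-fold. The genes that rose were in large part those of hepatocytes, among them enzymes of bile acid synthesis, cytochrome P450 and glucuronosyltransferase genes, clotting factors and apolipoproteins. Of the 359 genes tested on the 25 lists of liver-type genes, 154 rose, 1 fell and 204 were not called, with a median difference of 0.37 against 0.00 over all genes tested. The lists were chosen with earlier results of these data known, so these counts are a description and not independent support. Of the 359, 11 passed the level filter through their CGP mean alone and so had to differ, and 10 of those were among the 154. Without them 144 of 348 rose (median 0.35). Of the 18 genes that rose with a CON mean under 6, on a liver list or not, 17 passed the filter through their CGP mean alone. Rises of single genes with a CON mean under 6 are therefore not read as results. The counts of single lists below still include such genes. Most of the differences were moderate. Of the 257 genes that rose, 195 passed 1.5-fold, 91 passed 1.8-fold, 43 passed 2-fold, 9 passed 2.5-fold and 2 passed 3-fold. The 3 genes that fell were Prl8a2, Gm5592 and Lcn2.

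Cyp7a1, which turns cholesterol into bile acid in the step that sets the rate (probe set 10511375), had the largest difference. Its signal was 7.17, 7.26 and 7.16 on the CON arrays and 9.02, 9.0 and 8.79 on the CGP arrays. The groups lay far apart, and the difference of 1.74 ± 0.07 (SE, n = 3 arrays per pool) corresponds to 3.35-fold (limma adjusted p = 4.88e-09). Ugt2b34, an enzyme that couples glucuronic acid to steroids and drugs, read 6.96, 7.19 and 7.11 in CON and 8.83, 8.70 and 8.56 in CGP. It was the other gene above 3-fold, at 3.05-fold (difference 1.61 ± 0.08, limma adjusted p = 3.56e-08).

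Cyp3a11, the main drug-oxidising P450 of mouse liver, read 9.98, 10.09 and 9.94 in CON and 11.83, 11.44 and 11.25 in CGP. All CGP arrays were above all CON arrays, although the CGP arrays differed among themselves by more than the CON arrays did, with SDs of 0.30 and 0.08. The difference was 1.51 ± 0.13, or 2.84-fold (limma adjusted p = 3.82e-06). The related Cyp3a25 read 8.71, 8.83 and 8.74 against 10.38, 10.18 and 9.86, a 2.61-fold rise. On these genes and on Ugt2b36 (7.35, 7.52 and 7.78 against 9.20, 8.91 and 8.63, 2.57-fold) CGP replicate 1 was the highest array and CGP replicate 3 the lowest. The steroid and drug conjugating genes Ugt3a1 and Ugt2a3 rose 2.54-fold and 2.47-fold.

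The remaining genes among the 12 largest rises act on esters, amino acids, steroids and fatty acids. Aadac, an esterase of the endoplasmic reticulum, read 6.99, 7.08 and 7.38 in CON and 8.58, 8.73 and 8.59 in CGP, a 2.79-fold rise. The carboxylesterase Ces1g rose 2.64-fold from a mean of 6.84 to 8.24. Tdo2, which opens the tryptophan ring in the first step of the kynurenine pathway, read 8.40, 8.54 and 8.55 against 9.96, 9.85 and 9.68, a 2.52-fold rise. Akr1c6, a hydroxysteroid dehydrogenase, rose 2.48-fold and Cyp2c50 2.45-fold. In none of these genes did a CGP array fall within the range of the CON arrays. The same held for all 257 genes that rose, so it is not particular to these and follows their choice by difference. The share over all genes tested is not given.

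**Figure D1:**
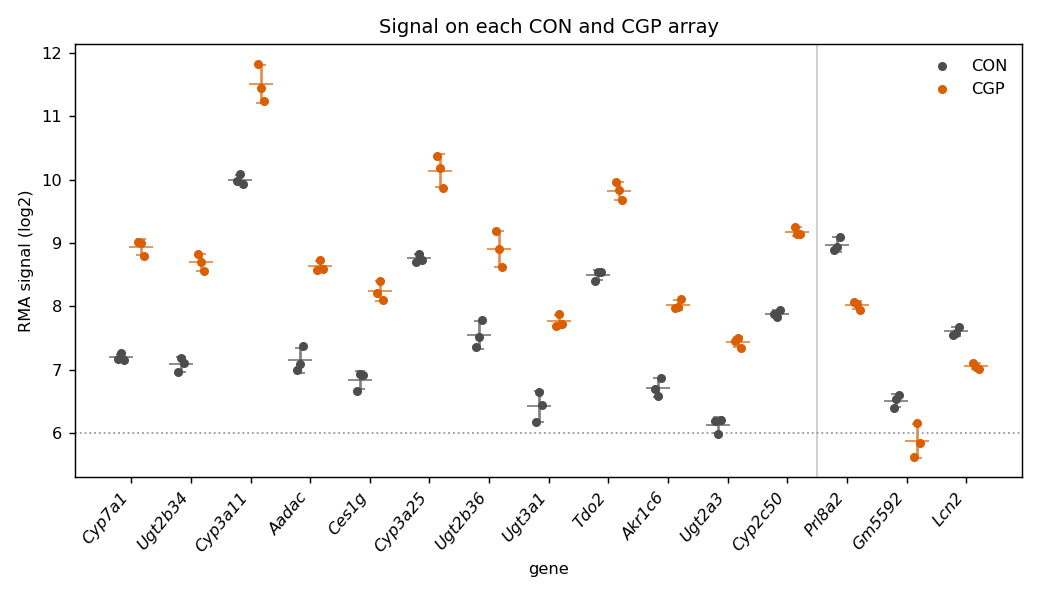
RMA signal (log2, vertical axis) of the 12 genes with the largest rises and, right of the grey line, the 3 called lower (horizontal axis), on each CON (grey) and CGP (orange) array, with bars for the mean and SD of 3 arrays and a dotted line at 6. CON and CGP arrays do not overlap for any of the 15, which were chosen by their difference, nor for any of the 257 genes that rose. The CGP arrays of Cyp3a11 spread from 11.25 to 11.83.

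To show the regulatory sequence of genes that moved together, 300 bases around a RefSeq start site are given for 3 of the 12 largest rises, picked because their windows hold an HNF4 or C/EBP motif, for albumin as the reference gene of hepatocytes, and for Lcn2, which fell. Of the 12, 11 had a window, and the remaining 8 held none of the motifs below (Ugt2b34, Aadac, Ugt2a3 and Cyp2c50) or TATAAA alone (Ces1g, Ugt3a1, Tdo2 and Akr1c6). Each runs 5′ to 3′ on the gene's strand, from 250 bases before to 50 bases after the start, in build GRCm38.p6. Capitals mark matches on either strand to 1 of 6 short motifs: GTTAATNAT (the main part of the site of the liver factor HNF1), CAAAGTCC (a core of HNF4 sites), TTGNGCAA (a C/EBP site), CAAGGTCA (the steroidogenic factor 1 site), TGACGTCA (the cyclic AMP response element) and TATAAA (the TATA box). None of these motifs contains another. The windows are chr5:145879805-145880104 on the minus strand for Cyp3a11, with CAAAGTCC and TATAAA, chr5:146009569-146009868 on the minus strand for Cyp3a25 and chr5:87092506-87092805 on the minus strand for Ugt2b36, each with TTGNGCAA, chr5:90460620-90460919 on the plus strand for Alb, with GTTAATNAT, and chr2:32387690-32387989 on the minus strand for Lcn2, with TTGNGCAA read on the reverse strand.
Cyp3a11: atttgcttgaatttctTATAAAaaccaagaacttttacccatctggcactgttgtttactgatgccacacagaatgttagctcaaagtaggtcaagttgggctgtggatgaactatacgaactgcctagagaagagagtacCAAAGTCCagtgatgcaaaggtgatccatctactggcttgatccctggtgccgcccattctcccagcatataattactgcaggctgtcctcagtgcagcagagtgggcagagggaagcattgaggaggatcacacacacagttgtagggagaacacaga
Cyp3a25: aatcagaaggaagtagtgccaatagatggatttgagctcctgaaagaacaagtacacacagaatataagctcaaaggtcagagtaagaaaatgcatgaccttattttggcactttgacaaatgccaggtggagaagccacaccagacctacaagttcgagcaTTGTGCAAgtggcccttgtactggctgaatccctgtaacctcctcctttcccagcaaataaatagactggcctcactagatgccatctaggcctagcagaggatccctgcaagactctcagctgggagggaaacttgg
Ugt2b36: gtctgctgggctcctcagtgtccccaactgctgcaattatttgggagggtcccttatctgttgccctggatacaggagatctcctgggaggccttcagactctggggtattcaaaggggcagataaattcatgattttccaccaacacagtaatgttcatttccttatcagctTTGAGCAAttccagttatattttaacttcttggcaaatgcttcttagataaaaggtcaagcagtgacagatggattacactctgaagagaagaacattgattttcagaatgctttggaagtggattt
Alb: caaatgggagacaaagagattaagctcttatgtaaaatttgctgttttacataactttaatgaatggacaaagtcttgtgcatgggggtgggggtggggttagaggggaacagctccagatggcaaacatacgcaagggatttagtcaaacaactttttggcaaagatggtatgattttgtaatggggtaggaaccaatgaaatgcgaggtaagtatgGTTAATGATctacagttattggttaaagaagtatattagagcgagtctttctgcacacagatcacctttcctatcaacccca
Lcn2: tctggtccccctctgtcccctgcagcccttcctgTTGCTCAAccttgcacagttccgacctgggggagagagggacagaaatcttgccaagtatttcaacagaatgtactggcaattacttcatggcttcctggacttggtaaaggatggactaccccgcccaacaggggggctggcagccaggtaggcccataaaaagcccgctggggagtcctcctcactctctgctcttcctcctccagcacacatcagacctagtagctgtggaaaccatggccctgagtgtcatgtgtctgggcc

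Promoter windows were at hand for 200 of the 257 genes that rose and for 12504 of the genes tested, matched by gene identifier. A match to GTTAATNAT at any start site of a gene was found in 7.5% of the 200 and in 0.632% of the 12504, and in 0.801% of all 32851 windows. The corresponding shares were 6.5%, 1.76% and 1.42% for CAAAGTCC and 8%, 3.03% and 2.94% for TTGNGCAA. TATAAA was present in 25%, 10.3% and 13.6%, and CAAGGTCA in 3.5%, 1.4% and 1.56%. TGACGTCA was in 0 of the 200, against 3.11% of the genes tested and 1.79% of all windows, which says only that these letters are not in those windows. The shares are a description of letters in the windows and were not tested.

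Plasma proteins made by hepatocytes rose in 16 of 21 cases (median 0.70), beside 1.62% of all genes. A further 4 passed the adjusted p below 1.4-fold. The largest rises were those of the protease inhibitor Pzp at 2.01-fold, the phospholipid-binding Apoh at 1.95-fold, histidine-rich glycoprotein Hrg at 1.88-fold and Itih1, which stabilises hyaluronan, at 1.87-fold. Albumin, Alb, read 13.15, 13.18 and 13.12 in CON and 13.69, 13.65 and 13.58 in CGP. Its difference of 0.49 ± 0.06 lay just at the fold threshold (1.4-fold, limma adjusted p = 4.92e-05), while Apoa1 at 0.48 and transferrin, Trf, at 0.42 lay just under it. Transthyretin, Ttr, rose 1.67-fold. The fetal protein Afp had a mean signal of 5.84 in CON and 5.89 in CGP, under the minimum of 6 in both.

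Among transcription factors that define hepatocytes 2 of 18 rose (median 0.31), and 4 more passed the adjusted p below 1.4-fold. Nr1i3, the xenobiotic sensor CAR, read 7.32, 7.45 and 7.38 in CON and 8.16, 8.08 and 8.05 in CGP, a 1.64-fold rise (limma adjusted p = 1.58e-05). Hnf4a, the nuclear receptor that drives much of the hepatocyte programme, read 8.99, 9.05 and 8.99 against 9.51, 9.71 and 9.57 and rose 1.5-fold (limma adjusted p = 6.58e-04). Differences of 0.44, 0.41, 0.33 and 0.32 for Creb3l3, Ppara, Onecut2 and Cebpa passed the adjusted p alone, and Nr1h4, the bile acid receptor FXR, had a difference of 0.26 (adjusted p = 0.327).

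Bile acid synthesis rose in 12 of 17 genes (median 0.70). Slc27a5, which couples bile acids to coenzyme A, rose 2.09-fold, Cyp8b1, which adds the cholic acid hydroxyl, 1.84-fold, and Baat, which conjugates bile acids with taurine, 1.77-fold. Cyp27a1 and Cyp7b1 of the alternative pathway were near the threshold at 1.42-fold and 1.44-fold. Akr1d1, whose CON mean was under 6, rose at least 1.46-fold. Of 18 genes of bile acid transport and sensing 8 rose (median 0.38). They included the sinusoidal uptake transporters Slc10a1 at 1.69-fold and Slco1b2 at 2.02-fold and the canalicular exporter Abcc2 at 1.88-fold. The bile salt pump Abcb11, whose CON mean was under 6, was also counted, at 1.48-fold or more. A minimum of 7 left 5 calls in this list. Nr0b2, the repressor SHP that bile acids induce in liver, had a difference of -0.13 and overlapping arrays (adjusted p = 0.568).

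P450 genes of family 3 rose in 4 of 4 cases (median 1.0), of family 2 in 12 of 25 (median 0.44), of family 4 in 5 of 12 (median 0.30, and 3 of 12 without CGP replicate 1) and of family 1 in 1 of 3. In family 2 the rises were largest in Cyp2c50, Cyp2c29 (2.4-fold), Cyp2j5 (2.39-fold) and Cyp2c54 (2.24-fold). Cyp2e1, the ethanol-oxidising enzyme with the highest CON signal of the family at 12.57, had a difference of 0.30 that passed the adjusted p alone. In family 1, Cyp1a2 of hepatocytes rose 1.86-fold, while Cyp1b1, an enzyme of extrahepatic tissue, had signals of 9.97 and 10.03. Genes of these families are close copies, and probe sets assigned to several of them were left out of these counts.

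Conjugating enzymes were uneven. Glucuronosyltransferases rose in 7 of 9 cases (median 1.26), the highest median of the drug metabolism lists, with Ugt2b1 at 2.39-fold, Ugt3a2 at 2.26-fold and Ugt2b5 at 2.23-fold. The brain lipid enzyme Ugt8a was under 6 in both groups. Sulfotransferases rose in 2 of 6 cases, Sult1d1 at 2.01-fold and Sult2a8 by at least 1.63-fold. Sult2a8 passed the level filter through its CGP mean alone and so had to differ. Glutathione S-transferases rose in 1 of 21 cases, Gsta3 at 1.81-fold (median 0.09), and Gstm1 had signals of 12.44 in both groups. Esterases and other drug-metabolising enzymes rose in 12 of 25 cases (median 0.43), with Pon1, a lipoprotein-bound lactonase, at 2.27-fold and Ces1c at 2.26-fold.

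**Figure D2:**
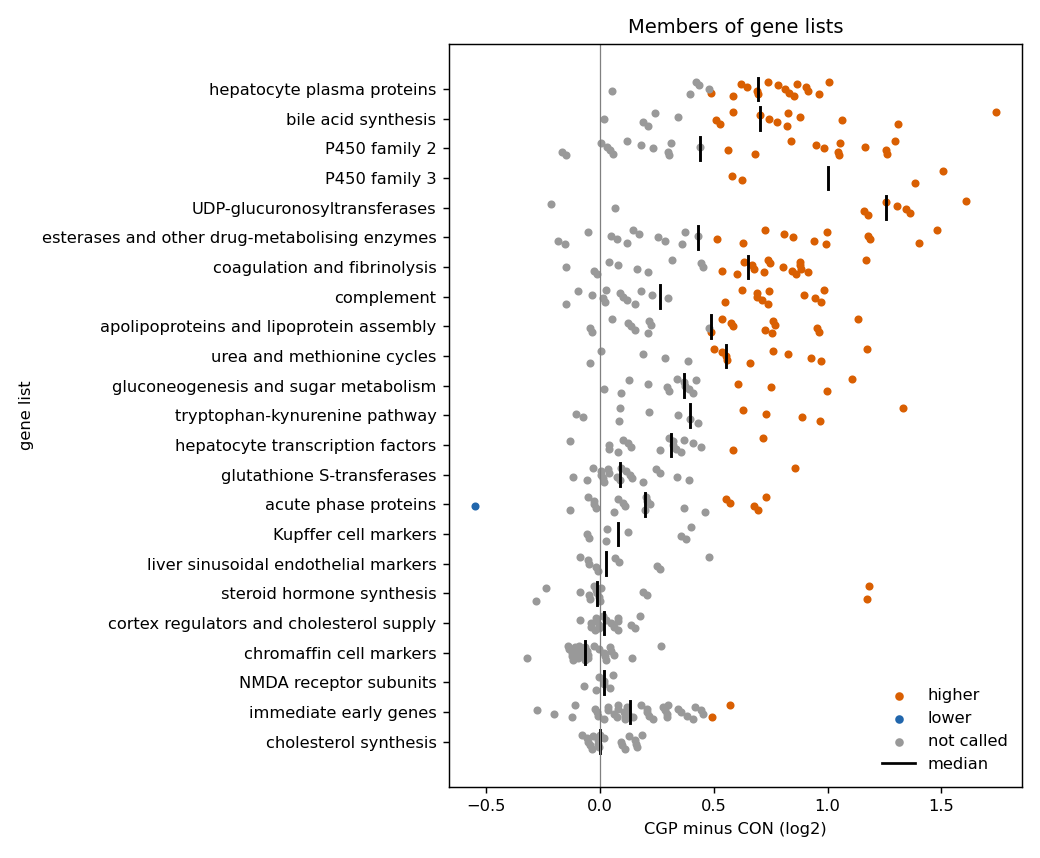
Log2 difference between CGP and CON (horizontal axis) of each tested member of 23 gene lists (vertical axis), coloured by call, with black bars for the list medians. Glucuronosyltransferases have a median of 1.26 and plasma proteins of 0.70, while adrenal and NMDA receptor lists have medians between -0.07 and 0.02.

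Coagulation and fibrinolysis genes rose in 16 of 26 cases (median 0.65). Heparin cofactor, Serpind1, read 8.43, 8.48 and 8.54 in CON and 9.62, 9.77 and 9.55 in CGP, a 2.25-fold rise, and the clotting factors F5 and F2 rose 1.85-fold and 1.79-fold. Plasminogen, Plg, rose 1.84-fold and fibrinogen beta, Fgb, 1.67-fold. Vwf, which endothelium makes, had a difference of -0.01. Complement genes rose in 11 of 24 cases (median 0.26), among them C9 at 1.98-fold, factor I, Cfi, at 1.96-fold and C5, listed as Hc, at 1.92-fold. The C1q chains, which macrophages make, had differences of 0.02 for C1qa, -0.10 for C1qb and -0.03 for C1qc.

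Apolipoprotein and lipoprotein assembly genes rose in 11 of 21 cases (median 0.49). Apob, the structural protein of very low density lipoprotein, rose 2.2-fold, Apon 1.94-fold and the loading protein Mttp 1.7-fold. Apoe, which macrophages and steroidogenic cells also make, had a CON signal of 13.26 and a difference of 0.21 (adjusted p = 0.0695). Acute phase genes rose in 5 of 21 cases and fell in 1 (median 0.20). C-reactive protein, Crp, rose 1.66-fold, hemopexin, Hpx, 1.62-fold and Saa4 1.6-fold, whereas hepcidin, Hamp, and Serpina3n, both strongly induced in inflammation, had differences of 0.08 and 0.06.

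Amino acid metabolism rose in several branches. Of 13 tryptophan-kynurenine genes 5 rose (median 0.40). Beside Tdo2 these were Kynu (7.80, 7.85 and 7.93 in CON, 8.78, 8.89 and 8.83 in CGP, 1.96-fold), Kmo at 1.85-fold, Haao at 1.66-fold and Aadat, and 3 more passed the adjusted p alone. These enzymes make kynurenic and quinolinic acid, which act on NMDA receptors. Of 15 urea and methionine cycle genes 10 rose (median 0.56), with Gnmt at 1.96-fold, Bhmt at 1.9-fold and Cps1, which fixes ammonia, at 1.77-fold. Otc, whose CON mean was under 6, was counted at 1.67-fold or more. Phenylalanine and tyrosine breakdown rose in 2 of 9 cases, Hgd at 1.87-fold and Hpd at 1.71-fold. Tat, a classical glucocorticoid target of liver, had a difference of 0.29 that passed the adjusted p alone.

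Gluconeogenesis and sugar metabolism rose in 4 of 16 cases (median 0.37), and 7 more passed the adjusted p below 1.4-fold. Fbp1, a key enzyme of glucose output, read 9.43, 9.48 and 9.40 in CON and 10.54, 10.59 and 10.51 in CGP, a 2.16-fold rise (limma adjusted p = 1.25e-07). G6pc, which releases free glucose, rose 1.99-fold. Pck1, at a CON signal of 11.91, had a difference of 0.34 that passed the adjusted p alone. Targets of PPAR-alpha and fasting rose in 5 of 20 cases (median 0.21, and 3 of 20 without CGP replicate 1), led by the fatty acid carrier Fabp1 at 1.89-fold, while Cpt1a and the fasting hormone Fgf21 had differences of 0.03 and 0.01. Cyp4a31 and Cyp4a10 among the 5 were also counted in P450 family 4.

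Liver lobules are zoned, and lists of both zones were described. These lists and those of sex bias share members with the lists above, among them G6pc, Cps1, Cyp2f2, Cyp7a1 and Cyp2d9. Such genes are counted again here. Periportal genes rose in 10 of 12 cases (median 0.79), with Pigr at 2.07-fold and the histidine-degrading Hal at 1.95-fold, and the epithelial cadherin Cdh1 at a difference of 0.00. Pericentral genes rose in 10 of 20 cases (median 0.47). Those that rose were P450 genes, Cyp7a1, Lect2 at 1.91-fold, Gulo and Slc1a2. Glul, Axin2, Lgr5 and Tbx3, which mark the cells next to the central vein but also other tissues, had differences of 0.00, 0.02, 0.01 and -0.08. Male-biased liver genes rose in 7 of 13 cases (median 0.53), with Elovl3 at 1.53-fold, Cyp4a12b at 1.52-fold and Cyp2d9 at 1.48-fold. Female-biased ones rose in 1 of 9 (median 0.17). That gene was Cyp3a44, at 1.39-fold or more, whose CON mean was under 6. The female-biased list had 0 calls without CON replicate 1, CON replicate 3 or CGP replicate 2.

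Other cells of the liver were looked at through their own markers. Of 8 Kupffer cell markers 0 were called by limma (3 were higher at an unadjusted p under 0.05), and of 10 sinusoidal endothelial markers likewise 0 (also 3). Over all genes tested, 6.57% were higher and 3.18% lower at an unadjusted p under 0.05, and such counts in this and the following lists are read beside these shares. Without CGP replicate 3 each of these lists had 1 call, and the sinusoidal list also had 1 without CON replicate 2 or CGP replicate 2. Of 10 stellate cell markers 0 were called (2 higher at an unadjusted p under 0.05), and of 3 bile duct markers 0 (0 at an unadjusted p under 0.05). The list medians were 0.08 for Kupffer, 0.03 for sinusoidal and 0.01 for stellate markers. The iron exporter Slc40a1 at 0.38 and Vsig4 at 0.36 of the Kupffer list passed the adjusted p below 1.4-fold. So did Clec4g at 0.48 and Dnase1l3 at 0.26 of the sinusoidal list and Reln at 0.33 of the stellate list. The Kupffer markers Cd5l, Clec4f, Timd4 and Marco, at 0.40, 0.03, 0.03 and -0.05, did not. Nor did the sinusoidal markers Stab2, Oit3 and Gpr182, at 0.25, 0.07 and -0.05. Cd5l, Timd4 and Vsig4, which mark Kupffer cells, lay under 6 in CON, at 5.80, 5.91 and 5.996. In whole tissue, a change in the number of cells of a type and a change in RNA per cell cannot be told apart.

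The summed linear signal of the 21 hepatocyte plasma protein genes lay between 48180 and 49390 on the CON arrays and between 71770 and 74090 on the CGP arrays. The sum over the 8 Kupffer cell markers lay between 1245 and 1253 in CON and between 1363 and 1410 in CGP. A linear sum weighs the highest signals most, here Il18bp (8.69 in CON, difference -0.06) and Slc40a1 (8.40 in CON, difference 0.38). The median difference of the 8 markers was 0.08. The sum over the 10 sinusoidal endothelial markers ranged from 4935 to 5185 and from 4914 to 5161, so those groups overlapped. Of the 21 plasma protein genes, 20 were higher at the adjusted p at any fold and Afp lay under 6. This list is itself among the 25 liver-type lists, so it adds nothing independent of them. The part that liver tissue or cells in the samples had in these rises was not tested. The median over all 359 liver-list genes, relative to the CON mean, was -0.03, 0.02 and 0.01 on the CON arrays and 0.36, 0.43 and 0.34 on the CGP arrays, so that each CGP array lay above each CON array.

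**Figure D3:**
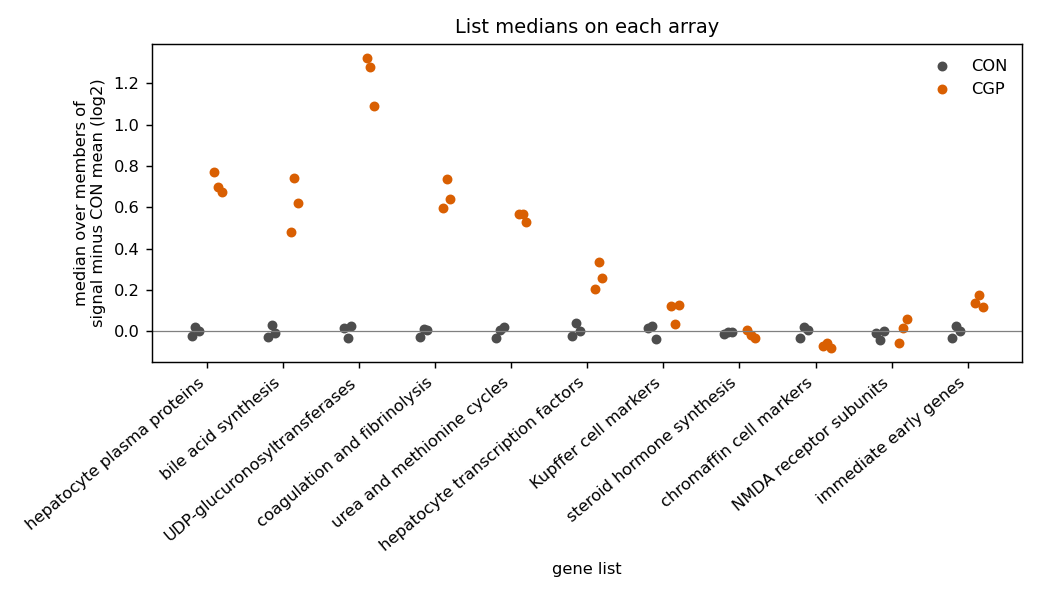
Median over the members of 11 gene lists (horizontal axis) of the signal minus the gene's CON mean (log2, vertical axis) on each CON (grey) and CGP (orange) array. Plasma protein medians lie between 0.68 and 0.77 on the CGP arrays, and chromaffin medians between -0.08 and -0.05.

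The size of the rise is given by the level in CON, for levels of 6 and over, since genes with a lower CON mean could enter through a high CGP mean. Among liver-list genes at a CON signal of 6 to 8, 54 of 128 rose, with a median difference of 0.36 and a highest one of 1.74. At 8 to 10, 67 of 138 rose (median 0.44). At 10 to 12, 20 of 65 rose (median 0.22, highest 1.51), and at 12 and over 2 of 11 (median 0.30, highest 0.58). Over all genes tested the medians of these levels lay between -0.01 and 0.01. RMA signals near the top of the scale can be compressed, and whether that bears on the small differences of the most abundant genes was not tested.

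**Figure D4:**
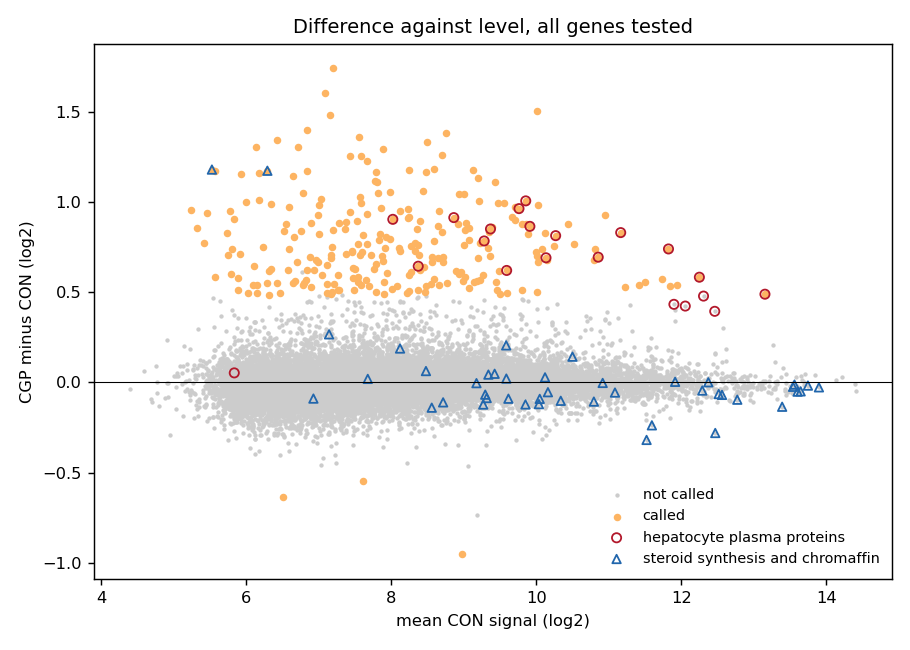
Difference between CGP and CON (log2, vertical axis) against the mean CON signal (log2, horizontal axis) for the 15900 genes tested, with called genes in orange, hepatocyte plasma proteins ringed in red and steroid synthesis and chromaffin genes as blue triangles. Plasma proteins other than Afp lie between 0.39 and 1.01, and the main steroid and chromaffin genes lie near 0.

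Of the 257 genes that rose, 97 were on none of the 58 lists, and the following were picked from them after their values were seen. Asgr1 and Asgr2, the receptor of hepatocytes for desialylated glycoproteins, rose 1.63-fold and 1.66-fold. The urate oxidase gene Uox rose 1.91-fold, the vitamin E carrier Ttpa 2.04-fold, Dmgdh of choline breakdown 2.17-fold and Dio1, which activates thyroid hormone, 1.79-fold. A1cf, a cofactor of Apob editing, rose at least 2.11-fold, its CON mean being under 6. Angiotensinogen, Agt, the precursor of the peptide that stimulates aldosterone, rose 1.41-fold, and the iron sensors Tfr2 and Hjv rose 1.59-fold and 1.43-fold.

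The steroid machinery of the gland stood in contrast. Of 15 steroid synthesis genes 2 rose (median -0.01), and both belong to enzyme families that also work in liver. Hsd3b3 read 6.12, 6.43 and 6.33 in CON and 7.69, 7.44 and 7.26 in CGP, a 2.26-fold rise. Sult2a8 read 5.45, 5.60 and 5.53 against 7.09, 6.45 and 6.58. It passed the level filter through its CGP mean alone, so its rise is not read as a result about steroid synthesis. The cholesterol importer Star and the P450 genes Cyp11a1, Cyp21a1 and Cyp11b1 had differences of -0.05, -0.01, -0.02 and -0.03, with adjusted p-values of 0.891, 0.981, 0.978 and 0.958. Their signals lay near the top of the scale.

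Cyp11b2, the aldosterone synthase of the outer zone, read 12.44, 12.44 and 12.52 in CON and 12.17, 12.27 and 12.12 in CGP. The groups did not overlap, and the difference of -0.28 ± 0.06 passed the adjusted p (0.0098) but not 1.4-fold. Hsd3b6, a hydroxysteroid dehydrogenase of the same zone, had a difference of -0.24 (adjusted p = 0.0776). Among 18 cortex regulators and cholesterol supply genes limma called 0 (3 higher at an unadjusted p under 0.05, beside 6.57% of all genes), and the ACTH receptor Mc2r and steroidogenic factor 1, Nr5a1, had differences of -0.02 and -0.04. Of 18 zone and capsule markers 0 were called (2 higher at an unadjusted p under 0.05), with Rspo3 at 0.29 and Shh at 0.20. Cholesterol synthesis had 0 calls among 19 genes (4 higher at an unadjusted p under 0.05, median 0.00).

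Chromaffin cell markers had 0 calls among 29 genes by limma (2 higher and 2 lower at an unadjusted p under 0.05), with a median of -0.07. Their summed linear signal lay between 76450 and 77860 in CON and between 72460 and 74350 in CGP. Th, the rate-limiting enzyme of catecholamine synthesis, read 13.37, 13.42 and 13.37 against 13.21, 13.31 and 13.25 (difference -0.13, adjusted p = 0.341), and Pnmt, which makes adrenaline, had a difference of -0.06. Galanin, Gal, at -0.32 and the growth factor receptor Ret at 0.27 passed the adjusted p alone. Outside the lists, the neuropeptide precursor Vgf, picked after its values were seen, read 8.95, 9.17 and 9.04 in CON and 8.55, 8.59 and 8.63 in CGP (difference -0.46, adjusted p = 0.00122), and it was called lower without CON replicate 1. The peptidase gene Ecel1 had a difference of -0.45 and the natriuretic peptide gene Nppb of -0.42, and both passed the adjusted p alone.

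The receptor that the drug blocks showed little. Of 6 NMDA receptor subunit genes and Grina, which shares only the name, 0 were called by limma (0 at an unadjusted p under 0.05), and their differences ran from -0.07 to 0.06. Grin2c had the highest signal of the subunits, 8.41, 8.50 and 8.49 in CON and 8.47, 8.55 and 8.51 in CGP. Grin2a and Grin2b lay near 6 in both groups, with means of 6.02 and 6.04 and of 5.95 and 5.94, close to the minimum used for testing. Grin1 was not analysed here. Other glutamate receptors had 0 calls among 15 genes (2 lower at an unadjusted p under 0.05), with Gria2 lowest at -0.21. GABA and glycine receptors had 0 among 17 (1 higher and 1 lower at an unadjusted p under 0.05).

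Transporters and enzymes of glutamate, GABA and glycine rose in 3 of 20 cases (median 0.08), and in 1 without CON replicate 1 or CGP replicate 2. Slc6a13, a GABA and taurine carrier that liver also expresses, read 8.44, 8.38 and 8.32 in CON and 8.96, 9.24 and 9.06 in CGP, a 1.63-fold rise. Slc1a2, the main glutamate carrier of astrocytes and a gene of pericentral hepatocytes, read 7.14, 7.16 and 7.26 against 7.60, 7.76 and 7.70, and Slc6a12, the betaine and GABA carrier, 8.19, 8.28 and 8.16 against 8.67, 8.75 and 8.69. Both rose 1.41-fold, just past the threshold. The synthetic enzymes Gad1, Gad2 and Glul had differences of -0.04, 0.01 and 0.00.

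Immediate early genes, which respond within minutes to stimulation of a cell or to handling of tissue, rose in 2 of 40 cases (1 without CON replicate 1 or CGP replicate 2), and 9 more passed the adjusted p below 1.4-fold (2.81% of all genes were higher at an adjusted p under 0.05 at any fold). Dusp5, a phosphatase of ERK, read 9.18, 9.24 and 9.24 in CON and 9.74, 9.87 and 9.76 in CGP, a 1.49-fold rise, and the matrix protein Ccn1 rose 1.41-fold. Atf3 (8.75, 8.87 and 8.92 against 9.26, 9.25 and 9.39) and Ier3 both had differences of 0.45, Fosb of 0.41, Fos and Junb of 0.29. Egr1 at 0.12, Npas4 at -0.28 and Nr4a1 at 0.08 did not pass. The median over the 40 genes was 0.13 and lay between 0.12 and 0.18 on the CGP arrays.

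Glucocorticoid targets and receptors had 0 higher calls among 17 genes by limma (6 higher and 3 lower at an unadjusted p under 0.05), and 1 fell, Lcn2. The receptor gene Nr3c1 had a difference of 0.19, and the targets Fkbp5 and Tsc22d3 of -0.21 and -0.06. The targets Pck1 and Tat, at 0.34 and 0.29, passed the adjusted p alone, and 10 of the 17 genes lay above 0. Of 11 fat cell markers 1 rose, Elovl3, which is also male-biased in liver, and of 9 intestine markers 1, Fabp2 at 1.98-fold, while Cdx2, Muc2 and Vil1 had differences of -0.04, -0.04 and -0.07. Limma made 0 calls among 13 kidney, 9 exocrine pancreas, 9 skeletal muscle, 6 lymphocyte, 12 macrophage and 14 endothelial markers. At an unadjusted p under 0.05, 1 kidney and 1 macrophage marker were higher, and 2 kidney, 1 pancreas and 2 muscle markers lower. It made 0 calls among 16 interferon genes (2 lower at an unadjusted p under 0.05), 14 cell cycle genes (1 higher and 1 lower), 13 LXR targets (5 higher, and 1 call without CGP replicate 1) and 15 heat shock genes (2 higher, with Hspa1a at 0.36 past the adjusted p alone). Of 9 housekeeping genes 0 were called (0 at an unadjusted p under 0.05), with differences from -0.04 to 0.07.

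The genes that fell were few. Prl8a2, a prolactin family hormone best known from the decidua, read 8.89, 8.94 and 9.10 in CON and 8.08, 8.04 and 7.95 in CGP. Its signal fell to 0.516 of CON (difference -0.95 ± 0.07, limma adjusted p = 8.57e-07). Lcn2, an iron-binding lipocalin of the acute phase response, read 7.55, 7.58 and 7.68 against 7.11, 7.05 and 7.01 and fell to 0.684 of CON (adjusted p = 0.00207). Gm5592, a predicted gene named although such symbols are otherwise only counted, fell to at most 0.701 of CON, since its CGP mean of 5.88 lies under 6. Macrod2 had a larger difference than Gm5592, -0.73, and an adjusted p of 0.109. It was called lower when only the CON and CGP arrays were fitted.

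Whether the antagonist had the same difference in mice given aspartame was tested as an interaction, the ASP+CGP minus ASP difference less the CGP minus CON difference. Of the 257 genes that rose in CGP, 245 had an interaction below 0 at an adjusted p under 0.05, and 0 had one above 0 (limma). The share below 0 over all genes tested was 29.5%, but the 257 were chosen on the CGP minus CON difference that the interaction subtracts, which tilts their sign below 0, so nothing is read from this count. The ASP+CGP against ASP contrast shares no array with the CGP minus CON difference. The spread, the probe sets and the level filter behind the choice of the 257 did use all 12 arrays, so the contrast is not fully independent of it. In that contrast 43 of the 257 were called lower, beside 13.3% of all genes, and 1 higher, beside 6.55% of all genes. The median difference of the 257 there was -0.09, against -0.02 over all genes. The values for Cyp7a1 were 1.74 without aspartame and -0.45 ± 0.07 with it, for Cyp3a11 1.51 and -1.23, and for Akr1c6 1.31 and 0.11. The Akr1c6 means in ASP and ASP+CGP (5.84 and 5.95) and the Cyp7a1 mean in ASP+CGP (5.73) lay under 6. Prl8a2, lower by 0.95 without aspartame, had a difference of 0.02 with it. The ASP and ASP+CGP arrays stood apart from CON, correlating with it at r = 0.9263 to 0.9341 and 0.9601 to 0.9782. The ASP+CGP arrays had interquartile ranges of 2.2 to 2.29 against 2.52 to 2.69 on the other arrays. Cyp7a1 had a mean of 6.18 in ASP against 7.20 in CON, whereas Cyp3a11 had a mean of 10.23 in ASP, above each CON array. The part of these distances in the interaction was not tested.

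**Figure D5:**
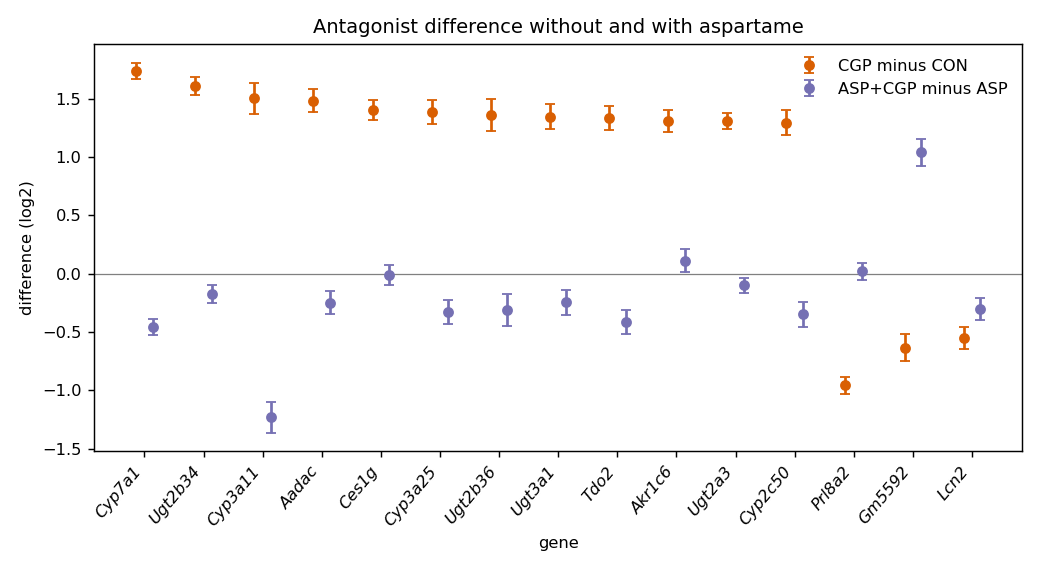
Difference between antagonist and no antagonist (log2, vertical axis) without aspartame (CGP minus CON, orange) and with it (ASP+CGP minus ASP, purple) for the 12 largest rises and the 3 genes called lower (horizontal axis), with bars for the SE of the fit (3 arrays per pool). Cyp3a11 lies at 1.51 without and -1.23 with aspartame.

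The 19 genes tested that the publication names for this comparison were all called higher here (median 1.31). They were chosen on these same arrays, so that this is not independent evidence of their direction.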

How the data were processed

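The authors hybridised pooled adrenal RNA to Affymetrix Mouse Gene ST arrays and deposited RMA signals on the log2 scale per probe set (background correction, quantile normalization and median polish, made in Partek). The 26533 probe sets deposited all reach 6 on at least 1 of 12 arrays. Platform annotation gives 1 symbol for 17710, several for 1077 and none for 7746. Each gene was read from its single-symbol probe set of highest average signal. Of 16244 genes, 344 were under 6 in every group and 15900 were tested. Precision is limited by the number of arrays.

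Group means over the 12 arrays were estimated by limma 3.58.1 (R 4.3.3) under empirical Bayes moderation. Errors are standard errors of this fit unless called SD. P-values were adjusted by Benjamini-Hochberg within a contrast, two-sided, and calls needed an adjusted p under 0.05 together with 1.4-fold. Folds with a group mean under 6 are bounds with that mean set to 6. Named genes are the 12 largest rises, the genes called lower, up to 6 members of a described list with the largest differences and its defining members, genes the publication names, NMDA receptor subunits and controls. The comparison, its members and the lists were chosen with earlier results of these data known. Members named beyond this rule were chosen after their values were seen. Lists are described by counts and medians, without a test of the list. The code was tested on simulated data. The probe sets without a single symbol went into a separate fit. Promoters are from RefSeq on GRCm38.p6 and were matched by gene identifier. Alternatives changed the fold minimum, the filter, the scaling, the moderation, the weights, the choice of probe set and of arrays, or took the replicate number as a block.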

Additional observations from a re-analysis of the deposited data

Results flagged for a closer look

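The difference made by the antagonist was compared with and without aspartame by an interaction in limma. Of the 257 genes that rose in CGP, 245 had an interaction below 0 at an adjusted p under 0.05, beside 29.5% of all genes tested. These genes and those below were chosen on the CGP minus CON difference that the interaction subtracts, which tilts it away from that difference. Nothing is therefore read from the count, and the values below are a description. The interaction on the log2 scale was -2.19 for Cyp7a1, -1.78 for Ugt2b34, -2.74 for Cyp3a11, -1.73 for Aadac, -1.41 for Ces1g and -1.71 for Cyp3a25. It was -1.67 for Ugt2b36, -1.59 for Ugt3a1, -1.75 for Tdo2, -1.20 for Akr1c6, -1.41 for Ugt2a3 and -1.64 for Cyp2c50. The ASP and ASP+CGP means were both under 6 for Ugt3a1 (5.53 and 5.28), Akr1c6 (5.84 and 5.95) and Ugt2a3 (5.63 and 5.53). The ASP+CGP mean was also under 6 for Cyp7a1 (5.73) and Aadac (5.95). The interactions were not bounded at 6, and at such levels a difference with aspartame is poorly measured. It was above 0 for the genes called lower Prl8a2 (0.97) and Gm5592 (1.68), and for Lcn2 it did not pass (0.25, adjusted p = 0.129). The adjusted p-values of the interaction were between 1.99e-10 for Cyp7a1 and 7.75e-06 for Ugt2b36 among the 12 largest rises. In Slc1a2 the interaction was -4.21, with signals of 10.82 in ASP and 7.11 in ASP+CGP.

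Probe sets outside the gene counts also carried signal above CON. Of 1050 tested probe sets listed with several genes, 14 were called higher and 0 lower (1.33% higher). They included probe sets shared by Ugt3a2 and Ugt3a1 (2.31-fold and 2.23-fold), by Cyp2a5 and Cyp2a4 (2.17-fold), by Mug1 and its pseudogene Mug-ps1 (1.8-fold), by 8 members of the Ugt1a cluster (1.6-fold) and by Ass1 of the urea cycle and Gm5424 (1.41-fold). Of the remaining 7228 probe sets listed with no gene, 15 were called higher and 0 lower (0.208% higher), the highest at 2.85-fold. Which transcripts those 15 measure was not determined.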

How the results depend on the processing

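The count of genes higher in CGP than CON was 257 and stayed between 230 and 261 with no filter, a minimum of 7, median centring, cyclic loess, other moderation, only the CON and CGP arrays, array weights or the mean over probe sets, and all 12 of the largest rises were called in each. A 1.8-fold minimum gave 91 higher (68 of them on liver lists, against 154), 1 lower and 91 with an interaction, and no fold minimum gave 446, 33 and 375, where the stated folds were 257, 3 and 245. Leaving out 1 array at a time gave 233 to 271 higher, 3 to 8 lower, 146 to 158 on liver lists and 220 to 259 with an interaction. The 8 lower came without CGP replicate 3 and added Ctrc, Fut2, Ifna5, Ccdc182 and 1700031F05Rik to the 3 named. Gm5592 was not called without moderation, and at a minimum of 7 it was not tested. Median centring moved the median of all genes by -0.01. With the replicate block, 256 genes were higher, all of them among the 257, 3 were lower and 154 were on liver lists. Same-numbered CON and CGP arrays did not deviate together over all probe sets, with correlations of 0.02, -0.05 and -0.04. Replicate 2 had the widest interquartile range in each group, at 2.62 in CON, 2.69 in CGP, 2.61 in ASP and 2.29 in ASP+CGP. Whether arrays of the same number shared a batch was not tested. Genes just past 1.4-fold lost their call under some settings. Alb did with median centring (0.48) and without CON replicate 3, CGP replicate 1 or CGP replicate 2 (0.46 to 0.48), Slc1a2 without CON replicate 1 (0.48) or CGP replicate 2 (0.46), and Agt without CON replicate 2 or CGP replicate 2 (both 0.48). Ccn1 and Slc6a12 did without CON replicate 1, CON replicate 3 or CGP replicate 2 and with median centring and array weights, Ccn1 also with loess. Cyp27a1 did without CON replicate 1 (0.48), and Cyp7b1 and Cyp3a44 without CON replicate 1, CGP replicate 2 and 1 further array each. Abcb11 was not called without moderation (0.83). The liver sinusoidal markers had 1 call with loess. A minimum of 7 left 5 calls in bile acid transport and sensing, 1 each in sulfotransferases and steroid synthesis and 0 in female-biased genes, which also had 0 without moderation. Immediate early genes had 1 with median centring, loess or array weights. Macrod2 was the fourth gene called lower with only the CON and CGP arrays. No named gene that was called changed direction under any of these settings. Of 5 further single-gene probe sets of genes that rose, 4 were also called higher (Bhmt with a pair of them, Mug2 and Ttpa), and that of Fga was not (0.39 against 0.72).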
